A study of Mus musculus with 4 samples.

Results

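Aminoacyl-tRNA synthetases were followed through a ribosome profiling series of mouse testis, in which the mRNA fragments protected by ribosomes are sequenced. They were the genes of a fixed list of names, 20 for cytosolic enzymes and 16, with symbols ending in 2, for mitochondrial enzymes. All 36 were listed under those names among the 14984 genes of the deposited table, and 35 had enough reads to be tested. Whole testes were taken at day 10, 2 samples labelled control and 2 labelled cKO. Per the series' design text the knockout (Eif5 cKO) came from crossing mice with floxed Eif5 alleles to mice carrying Stra8-Cre, a transgene active in germ cells from the spermatogonial stage on. No label gives the genotype of the control mice or says whether the replicates were separate animals. The p-values therefore reflect the spread between these libraries alone, and that spread may be technical. Somatic cells keep Eif5 in this model, and the libraries were made from the whole organ.

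A synthetase joins an amino acid to its tRNA and so supplies the elongating ribosome. The enzymes fall into structural classes I and II. Cytosolic and mitochondrial forms are both made from nuclear genes, mostly separate ones, while Gars and Kars each give both forms. Several cytosolic enzymes are held together in the multisynthetase complex. ATF4, the transcription factor of the integrated stress response, is known to raise many cytosolic synthetase genes together with genes of amino acid synthesis and transport. Eif5 encodes the factor that promotes GTP hydrolysis by the initiation complex at the start codon.

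The libraries held 2225964 to 2934609 reads. Values below are reads divided by the library's size factor, as deposited, and are called normalised footprint values. They were not corrected for gene length, so levels are compared between libraries and not between genes. Eif5 had values of 365 and 304 in control against 173 and 266 in Eif5 cKO, a log2 fold change of -0.63 (SE 0.25) that did not pass (limma adjusted p = 0.319). Of 18 germ cell markers, 17 had negative log2 fold changes. limma called 9 of the 18 lower at an adjusted p under 0.05, beside 0.604% of all genes tested. The list's share of reads was 0.291% to 0.324% in control and 0.122% to 0.146% in Eif5 cKO. Among these markers, 1 (Prdm9, named after its values were seen) was at 0 in 1 Eif5 cKO library. Sertoli cell markers took 2.45% and 3.18% of control reads and 4.32% and 3.23% of Eif5 cKO reads. Clu alone took 1.49% and 2.06% against 2.71% and 1.94%, with its groups overlapping. The list's sum, and the scaling on it used below, therefore rest largely on Clu. Of the 15 Sertoli markers, 14 had positive log2 fold changes and limma called 1. Leydig cell markers took 0.0746% and 0.0847% against 0.122% and 0.115%, and macrophage markers 0.0474% and 0.0537% against 0.0636% and 0.0702%. Myoid markers took 0.186% to 0.244% and endothelial markers 0.0360% to 0.0464% over all 4 libraries. The part that this shift in marker levels had in the values of synthetase genes was not tested. In footprints of whole testis, fewer cells of a type, less RNA per cell and fewer ribosomes on each RNA cannot be told apart.

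No synthetase gene passed the test between Eif5 cKO and control testes. limma with Benjamini-Hochberg adjustment called 0 of the 35 tested, against 0.678% of all 12095 genes tested (0.604% lower and 0.0744% higher in Eif5 cKO), and edgeR, DESeq2 and limma-voom on the recovered reads also called 0. With 1 library left out in turn, 1 gene passed in 1 of the 4 fits, Tars2 without Eif5 cKO replicate 2. At an unadjusted p under 0.05 there were 6, namely Qars, Farsa and Fars2 with negative fold changes and Cars, Yars and Tars2 with positive ones, while 10.6% of all genes reached this level, 6.31% with negative and 4.32% with positive fold changes. DESeq2 gave 1 such gene, edgeR 6 and limma-voom 7. The median log2 fold change was -0.037 over 20 cytosolic genes and -0.11 over 15 mitochondrial genes, beside 0.003 over all genes tested. Scaling the libraries on the Sertoli list moved the median of all genes to -0.45, and the cytosolic and mitochondrial medians to -0.50 and -0.57. With 1 library left out in turn the cytosolic median ran from -0.18 to 0.030 and the mitochondrial from -0.23 to 0.043, both above 0 without control replicate 1, and the filter of 50 reads in 2 libraries gave a mitochondrial median of 0.17.

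The groups did not overlap for 19 of the 35 genes, 12 of them lower and 7 higher in Eif5 cKO, beside 40.8% of all genes in either direction, 20.9% lower and 20.0% higher. Signs were mixed: 9 cytosolic genes were positive and 11 negative, and 7 mitochondrial genes were positive and 8 negative. With the Sertoli scaling 2 cytosolic and 2 mitochondrial genes were positive. The summed cytosolic genes took 0.346% and 0.282% of control reads and 0.275% and 0.291% of Eif5 cKO reads, and the mitochondrial genes took 0.0536% and 0.0476% against 0.0529% and 0.0466%. Neither sum separated the groups.

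**Figure D1:**
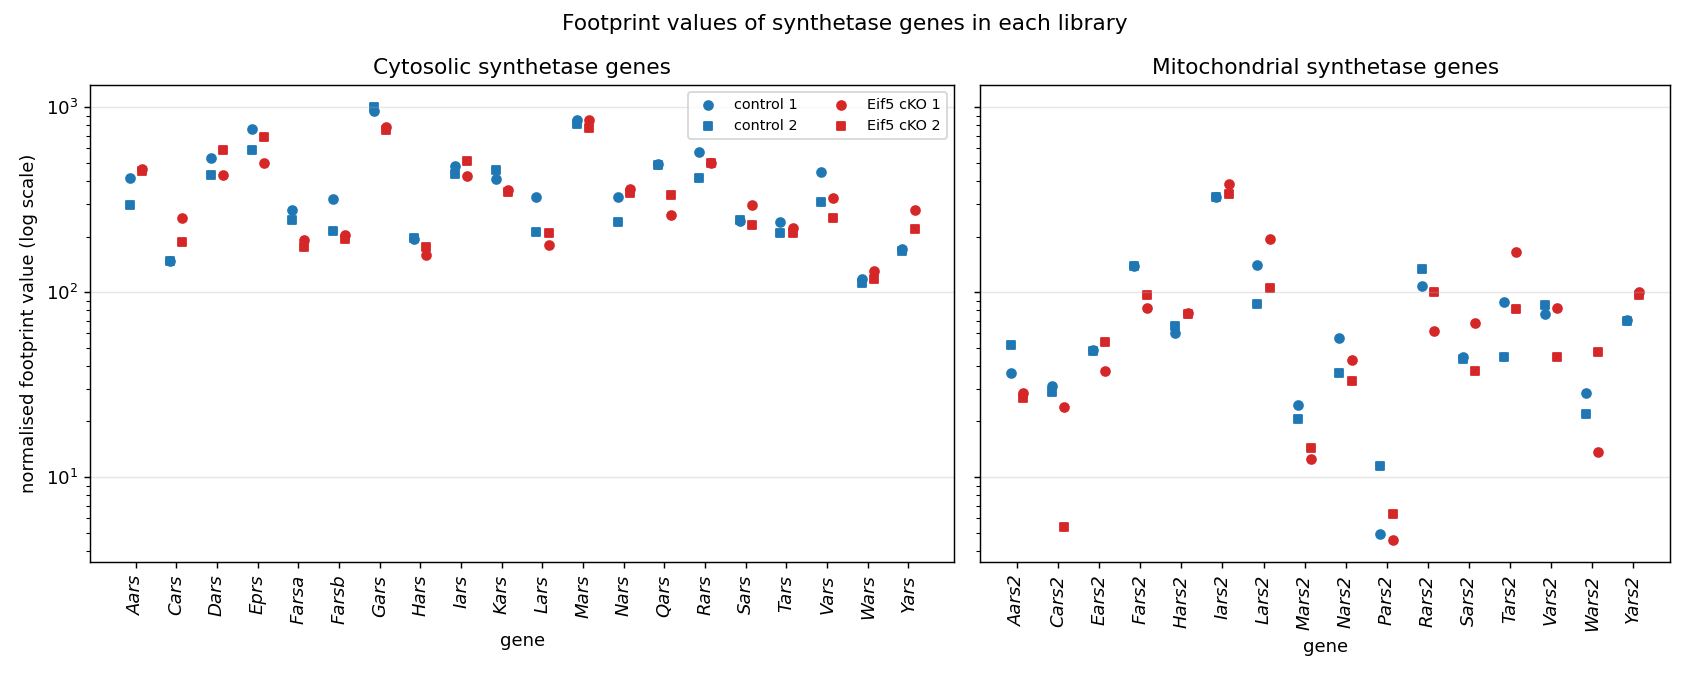
Normalised footprint values (log scale) of the 36 synthetase genes in the 2 control and 2 Eif5 cKO libraries, 1 point per library. Qars points of both Eif5 cKO libraries (261 and 336) lie below the control points (496 and 487), and the points of Iars2, at 327 to 385, lie close together.

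Among the cytosolic enzymes, Qars, which charges glutamine tRNA within the multisynthetase complex, stood lowest. Its values were 496 and 487 in control against 261 and 336 in Eif5 cKO. Both Eif5 cKO samples lay below both controls, and the controls differed little from each other. Its log2 fold change of -0.73 (SE 0.23, 95% interval -1.20 to -0.26) had the smallest p of the family (0.00336) and did not pass over all genes (limma adjusted p = 0.171, and 0.0551 to 0.720 over the alternatives). Qars lies on chromosome 9 at 108508005 to 108515941 (GRCm38). The 250 bases before its start, from the RefSeq promoter table (GRCm38.p6, chr9:108507755-108508004, plus strand), are shown because this gene had the smallest p. They hold no match to the ATF4 element described further on, so no base is in capitals.
Qars: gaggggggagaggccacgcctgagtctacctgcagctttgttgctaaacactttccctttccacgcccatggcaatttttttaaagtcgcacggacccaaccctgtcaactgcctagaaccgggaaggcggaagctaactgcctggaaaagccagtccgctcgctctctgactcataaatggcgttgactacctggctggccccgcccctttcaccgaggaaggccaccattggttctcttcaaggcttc

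The other 7 members of the multisynthetase complex lay closer to their controls than Qars did, with log2 fold changes of -0.44 to 0.075. Lars (leucine) had values of 326 and 211 in control against 181 and 208 in Eif5 cKO, and its log2 fold change was -0.44 (SE 0.26). Lars separated the groups by little, with control replicate 2 just above Eif5 cKO replicate 2, and without control replicate 1 its log2 fold change was -0.12. Kars, the lysine enzyme of both compartments, went from 409 and 458 to 356 and 347, with both Eif5 cKO values below both controls (log2 fold change -0.30, SE 0.23). Eprs, which carries the glutamate and proline activities on 1 chain, and Dars, Iars, Mars and Rars, for aspartate, isoleucine, methionine and arginine, had overlapping groups. Their log2 fold changes ran from -0.19 to 0.075. For Mars, read 704 to 1041 times per library, the 95% interval was -0.47 to 0.43. The 8 complex members together had a median of -0.11, with 0 called.

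The scaffold of that complex was measured through Aimp1, Aimp2 and Eef1e1, of which 0 of 3 passed. Aimp1 had values of 423 and 410 in control against 459 and 447 in Eif5 cKO (log2 fold change 0.12, SE 0.23). Eef1e1 had 184 and 216 in control against 198 and 164 in Eif5 cKO (-0.15, SE 0.26). Aimp1 values were higher in both Eif5 cKO samples, those of Eef1e1 overlapped, and all 3 intervals lay within a 2-fold change either way. With the Sertoli scaling the value of Aimp1 was -0.34.

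Farsa and Farsb encode the catalytic and the partner subunit of cytosolic phenylalanyl-tRNA synthetase, an enzyme that needs both. Farsa had values of 280 and 247 in control against 192 and 176 in Eif5 cKO. Farsb had 320 and 215 in control against 204 and 195 in Eif5 cKO. Each subunit was lower in both Eif5 cKO samples than in both controls, Farsa by a log2 fold change of -0.51 (SE 0.25, limma adjusted p = 0.456) and Farsb by -0.39 (SE 0.25, limma adjusted p = 0.627), and neither passed. The value of Farsa divided by that of Farsb, not corrected for length, was 0.875 and 1.15 in control against 0.939 and 0.903 in Eif5 cKO, so this ratio did not separate the groups. Fars2, the single-chain mitochondrial enzyme for phenylalanine, had values of 138 and 139 in control against 81.8 and 96.0 in Eif5 cKO (log2 fold change -0.64, SE 0.29, limma adjusted p = 0.425). None of the 3 phenylalanine genes passed. Each had its groups apart and lower in Eif5 cKO, as had 12 of the 35 synthetase genes and 20.9% of all genes.

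Gars, the glycine enzyme of both compartments, had values of 954 and 1009 in control against 786 and 753 in Eif5 cKO. The replicates of each group lay close together and the groups were apart, yet the log2 fold change of -0.35 (SE 0.22) did not pass (limma adjusted p = 0.617). Its 95% interval, -0.80 to 0.099, lay within a 2-fold change.

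Cars and Yars, which charge cysteine and tyrosine tRNA, stood highest among the cytosolic genes. Cars had values of 147 and 147 in control against 251 and 186 in Eif5 cKO (log2 fold change 0.55, SE 0.26, 95% interval 0.020 to 1.09). Yars had 172 and 168 in control against 277 and 219 in Eif5 cKO (0.53, SE 0.25, interval 0.019 to 1.05). Both genes had every Eif5 cKO value above every control value, with the higher value in Eif5 cKO replicate 1, and neither passed (limma adjusted p = 0.444 each). Aars, for alanine, had 415 and 295 in control against 461 and 455 in Eif5 cKO (0.39, SE 0.23). Nars, for asparagine, had 326 and 239 in control against 364 and 343 in Eif5 cKO (0.34, SE 0.24). For Aars and Nars the spread lay mainly between the controls, and the Aars value was -0.077 with the Sertoli scaling.

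The remaining cytosolic genes, Hars, Sars, Tars, Vars and Wars (histidine, serine, threonine, valine and tryptophan), had log2 fold changes of -0.38 to 0.10, and of these Hars alone had both Eif5 cKO values below both controls. Wars had the fewest reads of the cytosolic genes, 489 over the 4 libraries, and Gars the most, 3579. Over all 20 genes the standard error ran from 0.22 to 0.29, and for 16 of them the 95% interval lay wholly within a 2-fold change in either direction. The others were Qars, Farsa, Cars and Yars.

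**Figure D2:**
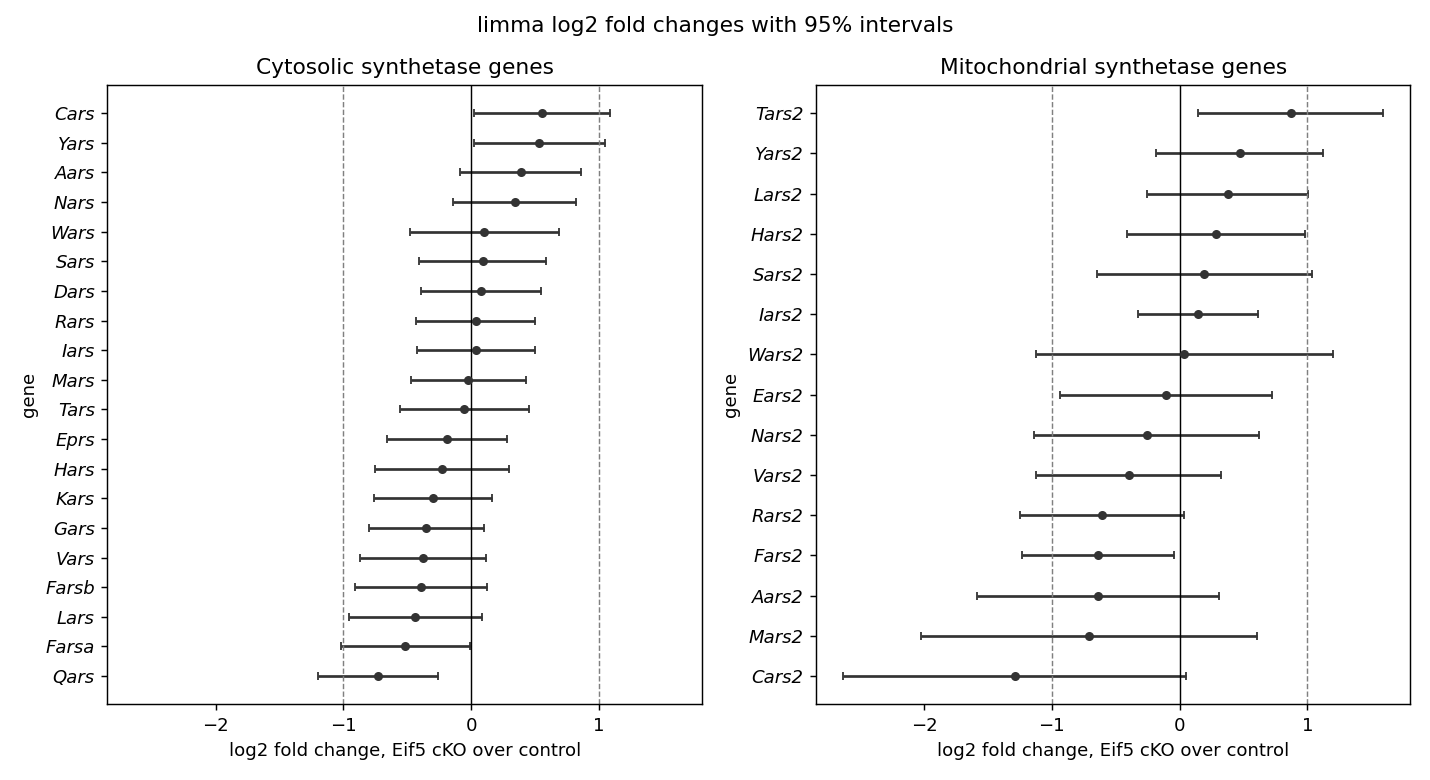
Fitted log2 fold changes (Eif5 cKO over control, limma) of 20 cytosolic and 15 mitochondrial synthetase genes, as points with 95% intervals; dashed lines mark a 2-fold change. Intervals are narrower for cytosolic genes, where 16 of 20 lie between the dashed lines, than for mitochondrial genes, where 3 of 15 do.

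Mitochondrial synthetase genes were read less deeply, with 27 (Pars2) to 1405 (Iars2) reads over the 4 libraries. Their standard errors ran from 0.23 to 0.66, and only Iars2, Hars2 and Ears2 had intervals within a 2-fold change. Iars2, for isoleucine, had values of 327 and 328 in control against 385 and 340 in Eif5 cKO (log2 fold change 0.14, SE 0.23). Pars2, for proline, was not tested, with 6 and 10 reads in control and 4 and 7 in Eif5 cKO. For most mitochondrial genes a 2-fold difference could not be told from none at this depth.

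Tars2, the mitochondrial threonine enzyme, had the highest fold change of the family. Its values were 88.1 and 44.8 in control against 166 and 80.7 in Eif5 cKO, a log2 fold change of 0.87 (SE 0.36, 95% interval 0.15 to 1.59) that did not pass (limma adjusted p = 0.339). The groups overlapped, because control replicate 1 lay above Eif5 cKO replicate 2 and the samples of each group differed by about 2-fold. Without Eif5 cKO replicate 2 it was the 1 synthetase gene that passed (log2 fold change 1.39, limma adjusted p = 0.0189). Leaving out Eif5 cKO replicate 1 gave 0.36. Tars2 lies on chromosome 3 at 95739974 to 95756365. The 250 bases before the start used by the promoter table (chr3:95754978-95755227, minus strand) are shown as those of the mitochondrial gene with the highest fold change. That start lies inside the gene span just given, and so do these bases. They hold no match to the ATF4 element.
Tars2: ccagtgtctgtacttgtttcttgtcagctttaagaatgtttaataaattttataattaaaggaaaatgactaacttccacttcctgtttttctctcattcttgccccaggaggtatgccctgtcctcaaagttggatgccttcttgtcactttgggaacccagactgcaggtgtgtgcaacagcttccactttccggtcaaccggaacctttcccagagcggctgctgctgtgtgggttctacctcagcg

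At the other end was Cars2, for cysteine, with values of 31.0 and 28.7 in control against 23.9 and 5.38 in Eif5 cKO. The low mean in Eif5 cKO rested on replicate 2, which had 6 reads against 21 in replicate 1. The log2 fold change was -1.29 (SE 0.66, limma adjusted p = 0.498), and -0.31 without that library. Rars2, for arginine, had 108 and 134 in control against 61.3 and 100.5 in Eif5 cKO (-0.61, SE 0.32, limma adjusted p = 0.508), with Eif5 cKO replicate 2 just under control replicate 1. Of the other mitochondrial genes tested, Aars2 and Mars2 were lower in both Eif5 cKO samples (log2 fold changes -0.64 and -0.71), and Hars2 and Yars2 were higher (0.28 and 0.47). Their limma adjusted p-values ran from 0.645 to 0.829. Ears2, Lars2, Nars2, Sars2, Vars2 and Wars2 overlapped between groups.

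Cytosolic and mitochondrial genes for the same amino acid were set side by side in 16 pairs, Fars2 being paired with both Farsa and Farsb. The signs were alike in 9 pairs and opposite in 7. The widest gap was that of cysteine, with 0.55 for Cars and -1.29 for Cars2, and the next was that of alanine, with 0.39 for Aars and -0.64 for Aars2. Threonine and leucine ran the other way, with -0.053 for Tars and 0.87 for Tars2, and -0.44 for Lars and 0.37 for Lars2. The tyrosine genes lay together, at 0.53 for Yars and 0.47 for Yars2. These differences within pairs were not tested, and no gene in them passed singly.

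**Figure D3:**
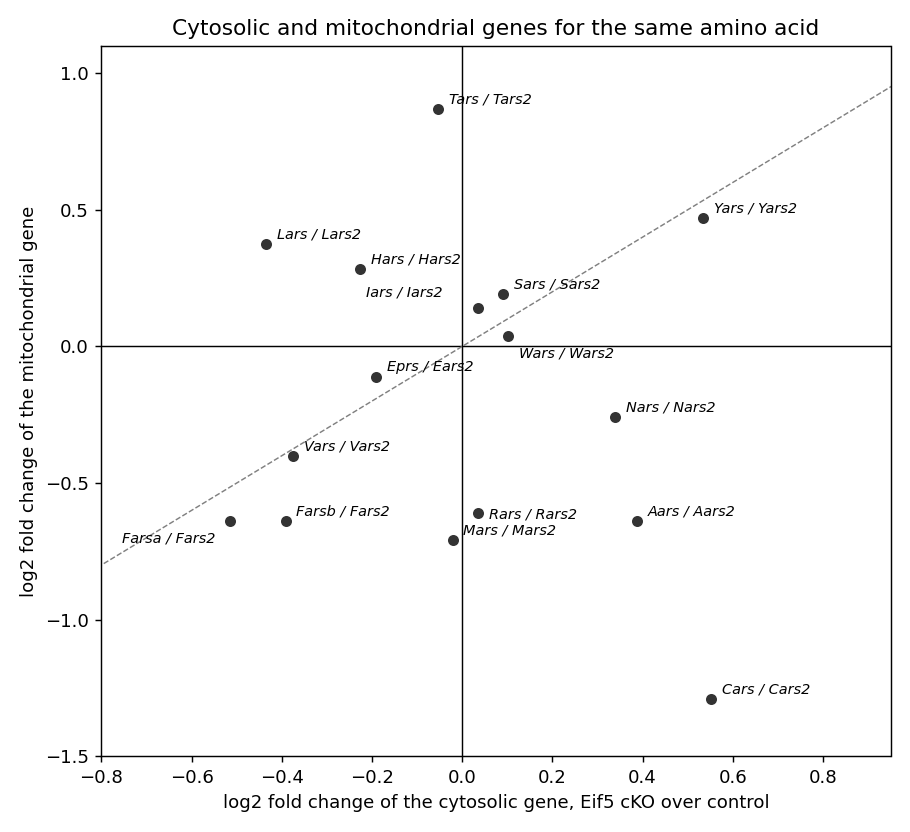
Log2 fold change (Eif5 cKO over control) of each mitochondrial synthetase gene against that of the cytosolic gene for the same amino acid, 1 point per pair; the dashed line marks equal change. Cars / Cars2 lies far below the line (0.55 and -1.29) and Tars / Tars2 far above it (-0.053 and 0.87).

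No partner of mitochondrial charging passed either. Mitochondria make glutamine tRNA by amidating a mischarged tRNA with the complex of Gatb, Gatc and Qrsl1, and Mtfmt formylates the initiator methionine tRNA. Of the 5 tested genes of this list, 0 passed, and their median log2 fold change was -0.041. Qrsl1 had values of 62.8 and 64.3 in control against 40.9 and 52.0 in Eif5 cKO (-0.45, SE 0.38). Gatc had 66.1 and 51.7 in control against 79.5 and 61.9 in Eif5 cKO (0.26, SE 0.36, and -0.20 with the Sertoli scaling). Qrsl1 values were below both controls in both Eif5 cKO samples and those of Gatc overlapped.

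In the list of tRNA proofreading, end processing, export and selenocysteine genes, 0 of 7 tested genes passed, with a median of -0.060. Dtd2, a deacylase that clears mischarged tRNA, had values of 94.7 and 56.2 in control against 143 and 143 in Eif5 cKO. Both Eif5 cKO values lay above both controls, and the log2 fold change of 0.96 (SE 0.31) did not pass (limma adjusted p = 0.181). Its relative Dtd1, which removes D-amino acids from tRNA, had 162 and 164 in control against 87.5 and 162 in Eif5 cKO (-0.45, SE 0.29), with Eif5 cKO replicate 1 as the low one.

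The synthetase genes were then divided by whether they are commonly listed as ATF4 targets. Of the 13 listed genes (Aars, Cars, Eprs, Gars, Iars, Lars, Mars, Nars, Sars, Tars, Vars, Wars and Yars), 7 were positive and 6 negative on the log2 scale. Their median was 0.035. The 7 other cytosolic genes had 2 positive and 5 negative values and a median of -0.30. The list of other ATF4 targets held genes that are not synthetases, among them Atf4 itself, Ddit3 and Asns. Of its 20 tested genes, 19 were positive, with a median of 0.34, and 0 passed in limma. Under the Sertoli scaling 7 of those 20 were positive and the medians were -0.43 for the listed synthetases and -0.12 for the other targets. No test compared these groups of genes.

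Stress genes that belong to that list of other ATF4 targets, and so were already counted there, are given here singly. Atf4 had values of 70.2 and 112 in control against 168 and 177 in Eif5 cKO (log2 fold change 0.95, SE 0.29, limma adjusted p = 0.151). Ddit3, which encodes CHOP, had 25.3 and 21.8 against 44.3 and 61.9 (1.12, SE 0.46, limma adjusted p = 0.342). Asns, asparagine synthetase, which makes the amino acid that Nars charges, had 368 and 365 against 466 and 467 (0.35, SE 0.23, limma adjusted p = 0.630, and -0.12 with the Sertoli scaling). All 3 had both Eif5 cKO values above both controls and none passed. The same order held for 11 of the list's 20 tested genes and for 20.0% of all genes.

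**Figure D4:**
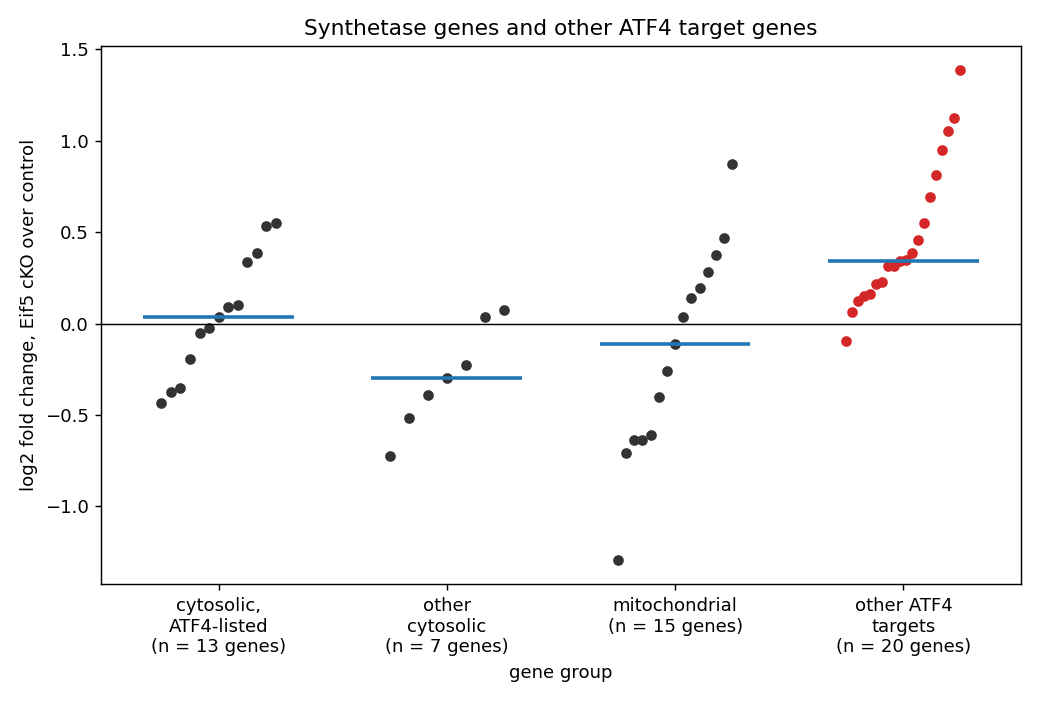
Log2 fold change (Eif5 cKO over control) of each gene in 4 groups, ordered within its group, with the median as a blue line. Other ATF4 targets, Atf4 itself included, lie mostly above 0, with a median of 0.34. The 13 listed cytosolic synthetases lie on both sides of 0, with a median of 0.035.

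ATF4 binds with C/EBP partners to an element written TGATGNAAN. It was searched on both strands of the RefSeq promoter table (GRCm38.p6, 250 bases before to 50 after a start), in which 27 of the 36 synthetase genes matched, Mars under its newer symbol. Cars, Hars, Lars, Nars, Rars, Vars, Wars, Hars2 and Pars2 were not matched and so were not searched. Among them, Hars, Lars, Nars and Hars2 share a chromosome whose promoters were left out before matching, so they may have entries. The element was in 3.95% of the 32851 promoters searched. It was present for 5 of the 13 cytosolic genes and 0 of the 14 mitochondrial genes that matched. All 5 belong to the 13 listed as ATF4 targets, of which 8 were matched. A match of letters is a description of the sequence, not a binding site.

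The match nearest the start of each gene is shown, to mark which of the synthetase promoters searched carry the stress element. Each window is 30 bases on the gene's strand, with the match in capitals. In Aars, Gars, Iars and Tars the element reads on the opposite strand. The Aars match begins at base 9 after the start used by the table, which lies inside the gene span (from 111027778). The Gars and Tars matches begin 31 and 16 bases before the start, and those of Iars and Yars at bases 7 and 4 after it.
Aars (chr8:111033840-111033869): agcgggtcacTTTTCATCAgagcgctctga
Gars (chr6:55037960-55037989): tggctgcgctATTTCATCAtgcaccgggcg
Iars (chr13:49682126-49682155): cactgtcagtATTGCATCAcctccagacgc
Tars (chr15:11399655-11399684): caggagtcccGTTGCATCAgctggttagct
Yars (chr4:129189896-129189925): cgagctcagcTGATGCAACccgacgggact

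The genes with these elements did not share a direction. Yars and Aars had log2 fold changes of 0.53 and 0.39, Iars and Tars lay near 0 at 0.035 and -0.053, and Gars was at -0.35. None of the 5 passed. Yars, with the highest fold change among them, has the match shown just after the start used by the table (base 4). The 250 bases before that start (chr4:129189653-129189902, plus strand) hold no match, so none is in capitals. The gene span begins at 129189734, so most of these bases lie inside it.
Yars: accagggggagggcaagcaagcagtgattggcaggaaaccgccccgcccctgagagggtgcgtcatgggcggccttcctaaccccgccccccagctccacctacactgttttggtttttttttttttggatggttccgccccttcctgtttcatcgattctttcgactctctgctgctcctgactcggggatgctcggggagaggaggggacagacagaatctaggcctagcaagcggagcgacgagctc

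Direction was also followed with each library left out in turn. The sign of the log2 fold change was the same in all 4 of these fits for 13 of 20 cytosolic and 9 of 15 mitochondrial genes tested. For genes whose groups do not overlap, as for 19 of these 22, this follows from the values and is no sign of stability. For Qars it ran from -0.91 to -0.55, for Cars from 0.34 to 0.77 and for Yars from 0.36 to 0.70. Those of Farsb and Lars ran from -0.68 to -0.10 and from -0.75 to -0.12, the values nearest 0 coming without control replicate 1. The direction of Dars, Eprs, Iars, Mars, Rars, Sars and Tars among cytosolic genes, and of Ears2, Lars2, Nars2, Sars2, Vars2 and Wars2 among mitochondrial genes, depended on the library left out.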

How the data were processed

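Footprints came from a commercial kit, per the labels' protocols. Bowtie2, STAR, featureCounts and GRCm38 are the tools and build in the submitters' processing notes, with no version given; strand and multi-mapping settings were not found in the labels, so the adjoining Hars and Hars2 genes may share reads. The deposited columns are named raw counts, but the values are not whole: they are a signal in which the authors divided reads by 1 factor per library, and multiplying each value by that factor gave whole reads in 100% of cases (relative tolerance 1e-06). limma 3.58.1 (R 4.3.3) was run with a mean-variance trend on log2(value + 1) and a single group term, for the 12095 genes passing filterByExpr of edgeR 4.0.16 (minimum count 10) on the recovered reads. Fold changes on this scale understate those of low genes. Tests were two-sided, adjusted by Benjamini-Hochberg over all genes tested, with a threshold of 0.05. Calls rest on the variance that limma shares among genes (residual degrees of freedom 2, prior 37.0), since a permutation of 2 against 2 samples cannot go below p = 0.333. Replicate libraries were not duplicates (chi-square per degree of freedom 8.30 and 10.8). edgeR, DESeq2 1.42.0 and limma-voom were run on the recovered reads, and scalings, pseudocounts, filters, each library left out and a replicate block were tried. The members, lists, rules and tests were chosen with earlier results of these data known. Genes named were Eif5, the 6 cytosolic and 4 mitochondrial members with the smallest p, the extremes of each compartment, Farsa, Farsb, Gars, Kars, 3 stress genes and the 2 smallest p of each context list; others were named to account for every member. A planned ranking of members by level per coding length was not made, as coding lengths were not used here. One sequence match is not reported here.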

Additional observations from a re-analysis of the deposited data

How the results depend on the processing

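Every alternative with all 4 libraries called 0 synthetase genes; with 1 library left out the count was 0 to 1 (Tars2, without Eif5 cKO replicate 2), and that of all genes, 82, became 10 to 346. With scaling on the Sertoli list the cytosolic and mitochondrial medians were -0.50 and -0.57, beside -0.45 for all genes, and of the genes named by the rule the signs turned for Aars (-0.077), Aimp1 (-0.34), Asns (-0.12), Gatc (-0.20) and the endothelial marker Pecam1 (-0.19). That scaling lowers fold changes by construction, as it follows the list's summed value. This sum was highest for Eif5 cKO replicate 1 (112785) and lowest for control replicate 1 (58570). The replicate 2 libraries had close sums, 81278 for control against 80572 for Eif5 cKO. The downward shift therefore rested on the replicate 1 libraries. The filter of 50 reads in 2 libraries moved the mitochondrial median to 0.17, as fewer genes were tested. Among the same named genes the sign also turned with 1 library left out for the myoid marker Cnn1 (-0.87 to 0.16) and for Pecam1 (-0.0028 to 0.54). Of 142 fits of the 13 named members under the other alternatives, 141 kept direction and side of the threshold, the exception being Aars. Most of the 13 were chosen for a small p or an extreme fold change and 0 were called. This count therefore does not measure the stability of the family. Replicate numbers did not pair the samples (correlation of deviations -0.047), and a replicate block called 100 genes and 0 synthetase genes. Depth limits the mitochondrial genes, whose standard errors reached 0.66.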

Other observations

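By structural class, the 19 class I genes tested had a median log2 fold change of -0.021 and the 16 class II genes one of -0.14, with 9 and 7 positive values and 0 called in either. Wars2, the mitochondrial tryptophan enzyme, had 12 and 53 reads in the Eif5 cKO libraries, values of 13.6 and 47.6, on opposite sides of the controls at 28.6 and 21.8. Tufm, the mitochondrial elongation factor that carries charged tRNA to the ribosome, was listed with 2, 1, 0 and 12 reads in control replicates 1 and 2 and Eif5 cKO replicates 1 and 2 and was not tested. Chac1, an ATF4 and CHOP target, had 10 reads in Eif5 cKO replicate 1 and 0 in the other libraries. Slc7a11 and Cebpb, like Chac1 listed among the other ATF4 targets, were also not tested. Slc7a11 had 4 and 3 reads in control against 5 and 10 in Eif5 cKO. Cebpb went the other way, with 6 and 10 reads in control against 3 and 2 in Eif5 cKO. These genes were chosen after their values were seen.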
